A study of Mus musculus with 10 samples.

Results

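The 10 genes described here encode the core of MHC class I antigen processing: *Nlrc5*, *B2m*, *Tap1*, *Tap2*, *Tapbp*, *Erap1*, *Psme1*, *Psmb8*, *Psmb9* and *Psmb10*. They were chosen by symbol, as genes whose probe sets on the array carry a single gene symbol, and each gene was read on its probe set of highest mean signal. All 10 were found among 19937 named genes, 9 of them with 1 probe set and *Nlrc5* with 19. The signals came from 10 Affymetrix Mouse Gene 1.0 ST arrays of cells grown from the bone marrow (BM) of C57BL6/N mice, with 1 array for each condition. The conditions were *Slpi*-/- and B6 BM-derived eosinophils (BMEos) given LPS for 3 h, unstimulated *Slpi*-/- and B6 BMEos, *Slpi*-/- and B6 BM-derived basophils (BMBs) whose IgE was cross-linked (anti-TNP-IgE over 1 h, followed by 12 h with TNP-OVA as the antigen), unstimulated *Slpi*-/- and B6 BMBs, and unstimulated *Slpi*-/- and B6 mast cells. *Slpi* encodes secretory leukoprotease inhibitor, an inhibitor of serine proteases, and *Slpi*-/- mice lack it. BMBs and mast cells were grown in IL-3, and the basophils were taken with magnetic beads as DX5+ c-kit- cells. BMEos were grown in SCF and Flt3L and then in IL-5. How many mice or cultures stood behind an array was not given in the sources used here. No condition had a replicate array, so the errors and p-values below do not measure a spread between replicates. They rest on how far the stimulus, cell type or genotype differences disagree between pairs of arrays, with a spread shared over genes. That disagreement may be technical or a real difference between the pairs.

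Class I molecules show peptides from proteins of the cell interior to CD8+ T cells and are carried by almost every nucleated cell. The proteasome cuts the proteins, and in cells exposed to interferons its catalytic subunits *Psmb6*, *Psmb7* and *Psmb5* are replaced by *Psmb9*, *Psmb10* and *Psmb8*, which form the immunoproteasome. The activator PA28, made of *Psme1* and *Psme2*, docks on the proteasome core. The transporter TAP, a pair of *Tap1* and *Tap2*, moves the peptides into the endoplasmic reticulum, where the aminopeptidase *Erap1* trims them and tapasin (*Tapbp*) holds the empty class I molecule next to TAP. *B2m*, beta-2 microglobulin, is the light chain of the class I molecule, and *Nlrc5* is the transactivator that drives many genes of the pathway. These genes are known as targets of the interferon factors *Irf1* and *Stat2*, and of NF-kB.

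The genes were neighbours in part. *Psmb9*, *Tap1*, *Psmb8* and *Tap2* follow each other in this order on chromosome 17 among the protein-coding genes of the RefSeq table, inside the MHC. The promoter windows of *Tap1* and *Psmb9*, each of 300 bases, lie head to head on opposite strands, share 275 bases, and leave 225 bases between the start sites. The RefSeq promoter table (build GRCm38.p6) matched 8 of the 10 genes and had no entry for *Tap2* and *Nlrc5*. The 250 bases before the start are shown for 4 of them, because they hold matches to motifs of interferon or NF-kB factors, or, for *Tap1*, because the window overlaps that of *Psmb9*. Capitals mark matches, on either strand, to the interferon response core GAAANNGAA, to the gamma activated site TTCNNNGAA, to the NF-kB consensus or to the CCAAT box.
*B2m* (chr2:122147437-122147686, plus strand): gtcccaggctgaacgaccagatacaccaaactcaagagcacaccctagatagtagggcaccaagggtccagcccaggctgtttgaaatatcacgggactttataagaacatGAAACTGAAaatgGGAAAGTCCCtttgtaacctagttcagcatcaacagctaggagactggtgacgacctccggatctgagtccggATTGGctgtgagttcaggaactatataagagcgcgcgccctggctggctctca
*Tap1* (chr17:34187306-34187555, plus strand): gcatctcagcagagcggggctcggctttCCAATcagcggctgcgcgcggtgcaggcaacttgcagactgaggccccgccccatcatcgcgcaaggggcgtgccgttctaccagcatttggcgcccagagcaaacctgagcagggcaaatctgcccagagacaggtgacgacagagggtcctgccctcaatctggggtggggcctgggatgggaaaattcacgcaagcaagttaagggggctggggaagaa
*Psmb8* (chr17:34197945-34198194, plus strand): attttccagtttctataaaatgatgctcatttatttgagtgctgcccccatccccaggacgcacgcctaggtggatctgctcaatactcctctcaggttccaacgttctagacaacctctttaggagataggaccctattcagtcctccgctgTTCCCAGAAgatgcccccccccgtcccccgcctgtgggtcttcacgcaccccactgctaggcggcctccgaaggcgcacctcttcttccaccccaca
*Erap1* (chr13:74639603-74639852, plus strand): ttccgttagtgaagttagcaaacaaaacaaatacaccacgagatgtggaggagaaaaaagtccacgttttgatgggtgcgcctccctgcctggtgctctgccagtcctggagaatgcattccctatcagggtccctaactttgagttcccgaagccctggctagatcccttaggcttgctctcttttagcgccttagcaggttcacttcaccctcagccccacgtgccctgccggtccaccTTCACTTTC
In the *B2m* window, the interferon response core began 139 bases before the start, the NF-kB match followed at 126 bases, and a CCAAT box on the minus strand lay at 53 bases. The *Psmb8* window held a gamma activated site 97 bases before the start, and the *Tap1* window held a CCAAT box at 222 bases, which is the same site that begins 8 bases before the start of *Psmb9*. *Erap1* had a pair of overlapping interferon response cores on the minus strand, at 9 and 3 bases before the start. The second of these runs past the start and is in capitals only up to it. *Psme1* had an interferon response core only 10 bases after its start, *Tapbp* had CCAAT boxes at 248 and 165 bases, and the *Psmb10* window held no match. The core was thus found in 3 of 8 windows, the gamma activated site in 1, the NF-kB consensus in 1 and the CCAAT box in 4, and of all 32851 windows of the same length 8.56%, 8.30%, 8.46% and 37.4% held them in that order. The matches are a description of letters, and no match says nothing of the factor.

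The arrays carried defining markers of the cell types on their labels, though BMBs and mast cells shared some. Signals are log2 values of robust multi-array averaging (RMA), so that a difference of 1 is a doubling. *Prg2* of eosinophil granules read 12.02 to 12.35 on the 4 BMEos arrays and at most 5.58 elsewhere. The basophil protease *Mcpt8* read 12.72 to 13.29 in BMBs and at most 5.58 elsewhere, and the chymase *Cma1* read 12.19 and 11.99 in *Slpi*-/- and B6 mast cells and at most 5.98 elsewhere. Of the 5 basophil markers tested, 4 were higher in BMBs than in mast cells and *Fcer1a*, the IgE receptor chain, was lower (-0.75 ± 0.22). Of the 5 mast cell markers tested 4 were lower in BMBs, and *Cpa3*, a carboxypeptidase, had -0.17 ± 0.16 (adjusted p = 0.4427). Background on an array was taken as the 95th percentile of 1027 olfactory receptor genes, 5.56 to 5.78. *Slpi*, which checks the genotype labels, fell in the *Slpi*-/- arrays of BMBs and BMEos, with 6.35 and 11.33 in *Slpi*-/- and B6 BMBs with IgE and 5.93 and 7.96 in *Slpi*-/- and B6 BMEos with LPS. In mast cells it had 6.47 in *Slpi*-/- and 6.53 in B6 cells, so it does not check the labels of that pair. The 2 BMEos arrays with LPS stood apart in sex-linked genes. *Xist*, the RNA of the inactive X chromosome, had 9.66 and 9.72 on them and 3.99 to 4.90 on the other 8 arrays, and the Y-linked gene *Eif2s3y* had 3.54 and 3.22 against 7.62 to 8.48. *Xist* without Y-linked signal is the pattern of female cells, and the reverse is that of male cells. The sample labels used here give no sex.

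All 10 class I genes were above background on all 10 arrays, also in resting cells. *B2m* had the narrowest range, with 12.76 and 12.80 in *Slpi*-/- and B6 BMEos with LPS, 12.48 and 12.52 in *Slpi*-/- and B6 BMEos, 12.21 and 12.34 in *Slpi*-/- and B6 BMBs with IgE, 12.31 and 12.39 in *Slpi*-/- and B6 BMBs, and 12.34 and 12.39 in *Slpi*-/- and B6 mast cells. Its 2 arrays with LPS were the highest, and the other 8 lay between 12.21 and 12.52. *Nlrc5*, on the probe set of highest mean signal, had 9.81 and 9.71 in *Slpi*-/- and B6 BMEos with LPS and 8.68 to 8.86 on the other 8 arrays, with no overlap.

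The transporter genes did not share a pattern. *Tap1* had 10.55 and 10.21 in *Slpi*-/- and B6 BMEos with LPS, 8.90 and 8.87 in *Slpi*-/- and B6 BMEos, 8.24 and 8.25 in *Slpi*-/- and B6 BMBs with IgE, 8.73 and 8.58 in *Slpi*-/- and B6 BMBs, and 8.38 and 8.58 in *Slpi*-/- and B6 mast cells. *Tap2* had 8.78 and 8.55 in *Slpi*-/- and B6 BMEos with LPS, 8.65 and 8.59 in *Slpi*-/- and B6 BMEos, 8.12 and 8.36 in *Slpi*-/- and B6 BMBs with IgE, 9.08 and 8.83 in *Slpi*-/- and B6 BMBs, and 9.62 and 9.73 in *Slpi*-/- and B6 mast cells. Thus *Tap1* was highest in BMEos with LPS and *Tap2* was highest in mast cells, while both were lowest in BMBs with IgE. Over the 10 arrays, Pearson's r between pairs of the other 9 genes had a median of 0.87 (36 pairs, 0.09 to 0.99), and r between *Tap2* and each of them lay between -0.85 and 0.01 (9 pairs), lowest with *Erap1*. These correlations are descriptive: the points share the arrays, and the 2 arrays with LPS carry much of the range.

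In the lumen of the endoplasmic reticulum, *Tapbp* had 10.84 and 10.75 in *Slpi*-/- and B6 BMEos with LPS, 9.99 and 10.02 in *Slpi*-/- and B6 BMEos, 9.90 and 10.18 in *Slpi*-/- and B6 BMBs with IgE, 10.26 and 10.41 in *Slpi*-/- and B6 BMBs, and 9.45 and 9.55 in *Slpi*-/- and B6 mast cells. *Erap1* had 7.72 and 7.50 in *Slpi*-/- and B6 BMEos with LPS, 7.004 and 7.11 in *Slpi*-/- and B6 BMEos, 7.57 and 7.73 in *Slpi*-/- and B6 BMBs with IgE, 7.35 and 7.44 in *Slpi*-/- and B6 BMBs, and 6.09 and 6.11 in *Slpi*-/- and B6 mast cells. Mast cells were the lowest for both genes, and for *Erap1* they came close to background.

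Among the proteasome genes, *Psmb10* had 10.03 and 9.62 in *Slpi*-/- and B6 BMEos with LPS, 8.72 and 8.46 in *Slpi*-/- and B6 BMEos, 8.18 and 8.15 in *Slpi*-/- and B6 BMBs with IgE, 7.95 and 7.68 in *Slpi*-/- and B6 BMBs, and 7.58 and 7.83 in *Slpi*-/- and B6 mast cells. *Psmb9* had 9.15 and 8.71 in *Slpi*-/- and B6 BMEos with LPS, 8.22 and 8.39 in *Slpi*-/- and B6 BMEos, 7.27 and 7.29 in *Slpi*-/- and B6 BMBs with IgE, 7.54 and 7.44 in *Slpi*-/- and B6 BMBs, and 7.75 and 7.85 in *Slpi*-/- and B6 mast cells. For these immunoproteasome subunits, the 4 BMEos arrays were above the other 6. *Psmb8* had 8.92 and 8.59 in *Slpi*-/- and B6 BMEos with LPS and 7.61 to 8.11 on the other 8 arrays, and *Psme1* had 10.24 and 10.19 against 8.82 to 9.27, so that only the arrays with LPS stood out.

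**Figure D1:**
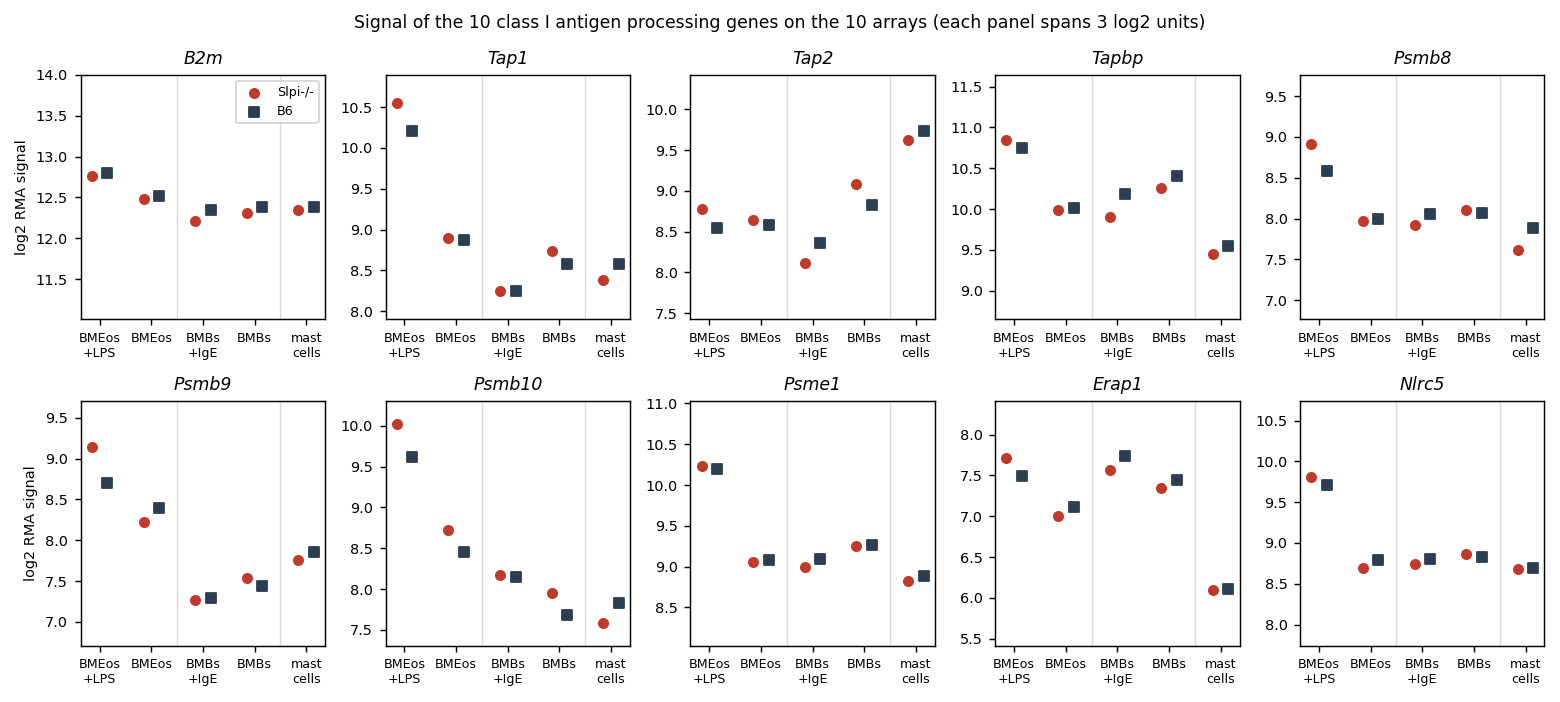
Log2 RMA signal (y axis, each panel spanning 3 units) of the 10 class I antigen processing genes in the 5 cell and stimulus settings (x axis), with *Slpi*-/- as circles and B6 as squares, 1 array each. In 9 of the 10 panels the BMEos arrays with LPS lie above the BMEos arrays without LPS, and *Tap2* is highest in mast cells.

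The first comparison asked how the class I genes differ between resting effector cells. In BMEos against mast cells, 5 of the 10 genes were higher and 1 was lower, at an adjusted p under 0.05 (limma on the 6 unstimulated arrays with a genotype term, Benjamini-Hochberg adjustment over 12998 genes). Of all genes tested 24.3% were higher and 26.8% lower. *Erap1* was 1.94-fold higher in BMEos (log2 difference 0.96 ± 0.09, SE, adjusted p = 0.0001783), *Psmb10* was 1.85-fold higher (0.89 ± 0.15, adjusted p = 0.002163), and *Psmb9*, *Tapbp* and *Tap1* were higher by 0.51, 0.50 and 0.40 on the log2 scale. *Tap2* was 2.09-fold lower in BMEos (log2 difference -1.06 ± 0.12, adjusted p = 0.0003039). The median difference of the 10 genes was 0.32, and that of all genes tested was -0.04. *Tap1* passed by little: it lost its call without *Slpi*-/- BMEos (adjusted p = 0.1393), without B6 BMEos (0.09273), without *Slpi*-/- mast cells (0.2097) and after quantile normalization (0.08486), and *Psmb9* lost its call without B6 BMEos (0.07177).

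In BMBs against mast cells, 3 of the 10 genes were higher and 1 was lower, where 18.8% of all genes tested were higher and 17.9% lower. *Erap1* was 2.45-fold higher in BMBs (log2 difference 1.29 ± 0.09, adjusted p = 6.969e-05), *Tapbp* was 1.78-fold higher (0.83 ± 0.10, adjusted p = 0.0006221), and *Psme1* was 1.32-fold higher (0.41 ± 0.09, adjusted p = 0.01416). *Tap2* was again lower, by 0.72 on the log2 scale (SE 0.12, adjusted p = 0.00307). *Psme1* lost its call without *Slpi*-/- BMBs (adjusted p = 0.06), without *Slpi*-/- mast cells (0.08851) and without B6 mast cells (0.06464). In BMEos against BMBs, 2 of the 10 genes were higher and 2 lower, which is near the shares of all genes tested, 18.6% higher and 21.2% lower. *Psmb9* was higher in BMEos by 0.82 ± 0.11 (adjusted p = 0.001092) and *Psmb10* by 0.78 ± 0.15 (adjusted p = 0.005586), while *Erap1* and *Tapbp* fell by 0.34 and 0.33 (adjusted p = 0.02805 and 0.03291). *Psmb10* lost its call without *Slpi*-/- BMEos (0.05136). *Erap1* and *Tapbp* lost theirs without any 1 of the 4 BMEos and BMB arrays (adjusted p of 0.0832 to 0.1808 for *Erap1* and 0.07083 to 0.2184 for *Tapbp*) and with each array centred on its median. In order of level, *Tap2* therefore ran mast cells above BMBs and BMEos, whose difference did not pass (adjusted p = 0.05939). *Erap1* and *Tapbp* were lowest in mast cells. Their order of BMBs above BMEos rested on the calls that were lost without any 1 array. For *Psmb9* and *Psmb10* BMEos were above BMBs and mast cells, between which neither gene passed (adjusted p = 0.06285 and 0.6085). The neighbours *Tap2*, *Psmb9* and *Psmb8* lay close to the threshold. *Tap2* passed between BMEos and BMBs after quantile normalization (0.03948), with the 99th percentile background (0.04502) and with a variance trend (0.02939). With the same background and with the trend, *Psmb9* was lower in BMBs than in mast cells (0.04723 and 0.03987). *Psmb8*, higher in BMBs than in mast cells by 0.34, did not pass (0.05107). It passed with arrays centred (0.04264), after quantile normalization (0.04859), with the 99th percentile background (0.0391) and with a variance trend (0.0303). Some fits without 1 array also crossed the threshold. There *Tap2* had -0.48 without B6 BMBs, *Psmb9* -0.42 without *Slpi*-/- BMBs and *Psmb8* 0.48 without B6 mast cells. *B2m* and *Nlrc5*, on the probe set used, passed between no pair of cell types. Markers of other cells differed as well. Of the 10 dendritic cell markers tested 5 were higher in BMEos and 8 in BMBs than in mast cells. Of the 5 monocyte and macrophage markers 4 and 4 were, and of all genes 24.3% and 18.8%. In *Slpi*-/- and B6 mast cells only 4 and 2 of 12 dendritic cell markers and 1 and 0 of 6 monocyte and macrophage markers were above background. Markers below it there entered through the other cells, and their count is no result of its own. Neutrophil markers had a log2 summed signal of 8.41 and 8.44 in *Slpi*-/- and B6 mast cells. It was 11.48 and 11.82 in BMEos and 12.75 and 12.63 in BMBs, in the same order. Of these 9 markers, 8 and 7 were above background in BMEos, 4 and 7 in BMBs and 2 and 0 in mast cells. Against mast cells *Ly6g* and *Mmp8* passed in BMBs (6.99 ± 0.10 and 1.74 ± 0.13), and no other of the list did. In BMEos *Ltf*, *Ly6g*, *Mmp8*, *Ngp* and *S100a9* passed, so the sums and the calls did not run in the same order. The part of these markers in the result was not tested. In bulk RNA of such cultures, a share of other cells and a level per cell cannot be told apart.

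**Figure D2:**
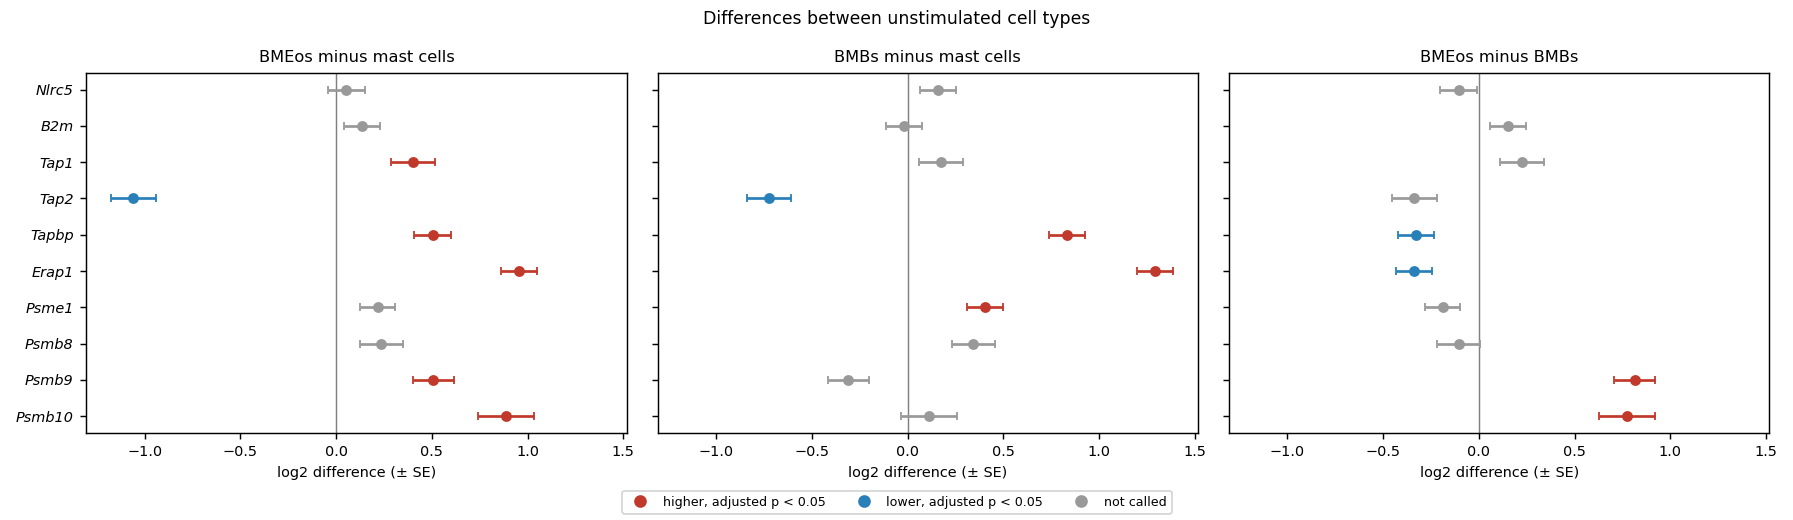
Log2 difference (x axis, points, with bars of 1 SE) of each class I gene (rows) between unstimulated cell types, from the fit of 6 arrays. Red is higher and blue lower at an adjusted p under 0.05, and grey did not pass: *Tap2* lies left of 0 against mast cells and *Erap1* right of 0.

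The other genes of the pathway differed between cell types too. *Ifngr2*, a chain of the interferon-gamma receptor, had 5.28 and 5.57 in *Slpi*-/- and B6 mast cells, which is below background, and 10.23 to 11.34 on the other 8 arrays. *Ifngr1*, the chain that binds the ligand, was higher in BMEos than in mast cells by 2.41 ± 0.10 (adjusted p = 3.145e-06). Of the 7 interferon receptor and Janus kinase genes tested, 6 were higher in BMEos than in mast cells and 6 were higher in BMBs than in mast cells, with 0 lower. Of all genes tested, 24.3% and 18.8% were higher. The median differences of the 7 were 1.33 and 1.04. *Ifngr2* is counted in both, though it entered the test only through BMEos and BMBs. Of the 6 other peptidase genes, 4 were higher and 2 lower in BMEos than in mast cells, among them *Npepps* (2.34 ± 0.11), a cytosolic aminopeptidase, and *Blmh* (-1.49 ± 0.09), the bleomycin hydrolase. Of the 12 class I heavy chain genes tested, *H2-Q5* and *H2-Q4* were the highest in BMEos over mast cells (1.39 ± 0.11 and 1.36 ± 0.11), and *Mr1*, which presents vitamin B metabolites, was the lowest (-1.16 ± 0.12). The genes *H2-K1* and *H2-D1* of the classical heavy chains were not analysed here, since no probe set carries either symbol alone, and related heavy chain genes may share probes. *Psme2* was higher in BMEos and in BMBs than in mast cells, by 0.59 ± 0.10 and 0.67 ± 0.10 (adjusted p = 0.002748 and 0.00243).

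The second comparison asked what LPS, a ligand of Toll-like receptor 4, changes in BMEos. With LPS, 8 of the 10 class I genes rose and 0 fell, where 12.7% of all 13571 genes tested rose and 16.2% fell (limma on all 10 arrays, where each genotype of a cell type had its own baseline). *Tap1* rose 2.83-fold (log2 difference 1.50 ± 0.11, adjusted p = 0.0003819), *Psmb10* 2.35-fold (1.24 ± 0.11, adjusted p = 0.0005794), *Psme1* 2.21-fold (1.15 ± 0.09, adjusted p = 0.0004646) and *Nlrc5* 2.03-fold (1.02 ± 0.10, adjusted p = 0.0008856). *Tapbp*, *Psmb8*, *Psmb9* and *Erap1* rose by 0.79 ± 0.10, 0.77 ± 0.12, 0.62 ± 0.15 and 0.55 ± 0.11 (adjusted p = 0.002202, 0.005254, 0.02616 and 0.0138). Each of these 8 was higher with LPS in both genotypes. *B2m*, with 0.28 ± 0.09, did not pass (adjusted p = 0.06198), and it passed with the stricter background (0.04488), with a variance trend (0.01401) and without the genotype block (0.03129). *Tap2* had a difference of 0.05 ± 0.14 (adjusted p = 0.8252), with 0.13 in *Slpi*-/- and -0.04 in B6 cells. The 10 genes had a median difference of 0.78, and all genes tested had 0.02. Without the *Slpi*-/- BMEos pair, 5 of the 10 rose, as *Psmb8* (0.59, adjusted p = 0.06179), *Psmb9* (0.31, 0.2413) and *Erap1* (0.39, 0.1565) lost their calls, and without the B6 pair 8 rose.

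Several measures moved with LPS beside the class I genes. The sex-linked genes given above separate the same 2 arrays from the others. LPS therefore cannot be told apart from the sex of the cells, or from whatever else set these cultures apart. Of the 11 dendritic cell markers tested, 5 were higher with LPS and 1 was lower. Of the 6 that were above background on both BMEos arrays without LPS, 3 were higher and 1 was lower. The log2 of the summed signal of this list was 10.67 and 10.58 in *Slpi*-/- and B6 BMEos with LPS against 10.71 and 10.48 in *Slpi*-/- and B6 BMEos. *Cd74*, the invariant chain of MHC class II, was among the higher ones (1.74 ± 0.09). Of the 6 monocyte and macrophage markers tested 3 were higher. Of the 3 markers above background on both BMEos arrays without LPS, 2 were higher. The log2 summed signal of this list was 10.62 and 10.71 in *Slpi*-/- and B6 BMEos with LPS against 10.04 and 9.86 in *Slpi*-/- and B6 BMEos. The platelet factor *Pf4* (1.86 ± 0.34) and the B cell marker *Cd79b* (0.40 ± 0.11) were higher, but neither was above background on both BMEos arrays without LPS. The neutrophil marker *Ly6g* was lower (-0.77 ± 0.10). Their part in the result was not tested. Of the 5 eosinophil markers 1 was higher (*Epx*, 0.64 ± 0.13), with a log2 summed signal of 14.36 and 14.31 in *Slpi*-/- and B6 BMEos with LPS against 14.17 and 14.36 in *Slpi*-/- and B6 BMEos.

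The rest of the pathway moved unevenly with LPS. *Psme2*, the partner of *Psme1* in PA28, rose by 0.86 ± 0.14 (adjusted p = 0.005977). The standard catalytic subunits had differences of 0.30 ± 0.12 for *Psmb5*, -0.02 ± 0.12 for *Psmb6* and 0.45 ± 0.14 for *Psmb7*, and none of the 3 passed (adjusted p = 0.1105, 0.9334 and 0.05192). Of the 20 other proteasome genes tested, 5 rose and 1 fell, with a median of 0.13, among them *Psma4* (0.44 ± 0.10), a subunit of the outer ring, and *Psmb1* (-0.43 ± 0.10), a subunit of the inner ring. Of the 12 heavy chain genes tested 7 rose and 2 fell, and of the 9 that were above background on both BMEos arrays without LPS 6 rose and 2 fell. *H2-T24* had 10.77 and 10.36 in *Slpi*-/- and B6 BMEos with LPS against 8.38 and 8.31 in *Slpi*-/- and B6 BMEos, and rose by 2.22 ± 0.12. *H2-Q4* rose by 1.87 ± 0.15, while *Mr1* and *Cd1d1*, which presents lipids, fell by 0.66 and 0.53. Of the 9 other peptide loading and chaperone genes only *Tapbpl*, a relative of tapasin that edits peptides, rose (0.79 ± 0.10). Of the 6 other peptidases only *Thop1* did (0.41 ± 0.11), and it was not above background on either BMEos array without LPS.

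Several transcription factors that are known to drive the pathway rose too. *Irf1* had 9.48 and 9.08 in *Slpi*-/- and B6 BMEos with LPS against 8.22 and 8.04 in *Slpi*-/- and B6 BMEos, and rose 2.22-fold (1.15 ± 0.10, adjusted p = 0.0006061). *Irf7* had 10.64 and 10.16 against 6.30 and 6.13 in the same order, and *Stat2* had 10.16 and 9.73 against 8.14 and 8.04. Of the 18 regulators tested 8 rose and 2 fell (*Atf1* and *Rfxank*), with *Irf7* (4.19 ± 0.13) and *Stat2* (1.86 ± 0.11) the highest. Of the 17 regulators above background on both BMEos arrays without LPS, 7 rose and 2 fell. Of the 19 interferon-induced genes outside class I that were tested, 10 were above background on both BMEos arrays without LPS, and these 10 rose by 1.28 to 5.20 on the log2 scale. The smallest of these differences were those of *Bst2*, a tether of virions (1.28 ± 0.10), and *Oasl2*, an oligoadenylate synthetase relative (1.77 ± 0.11). Of the remaining genes, *Xaf1* was above background on both BMB arrays without IgE, so the arrays with LPS were not its only way into the test. All 9 remaining genes were at background on 1 or both BMEos arrays without LPS, so their rise is no count of its own. Among them *Cxcl10*, a chemokine, had 12.64 and 11.94 in *Slpi*-/- and B6 BMEos with LPS against 5.78 and 5.59 in *Slpi*-/- and B6 BMEos, and *Rsad2*, an antiviral enzyme, had 11.61 and 10.65 against 5.23 and 5.06 in the same order.

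**Figure D3:**
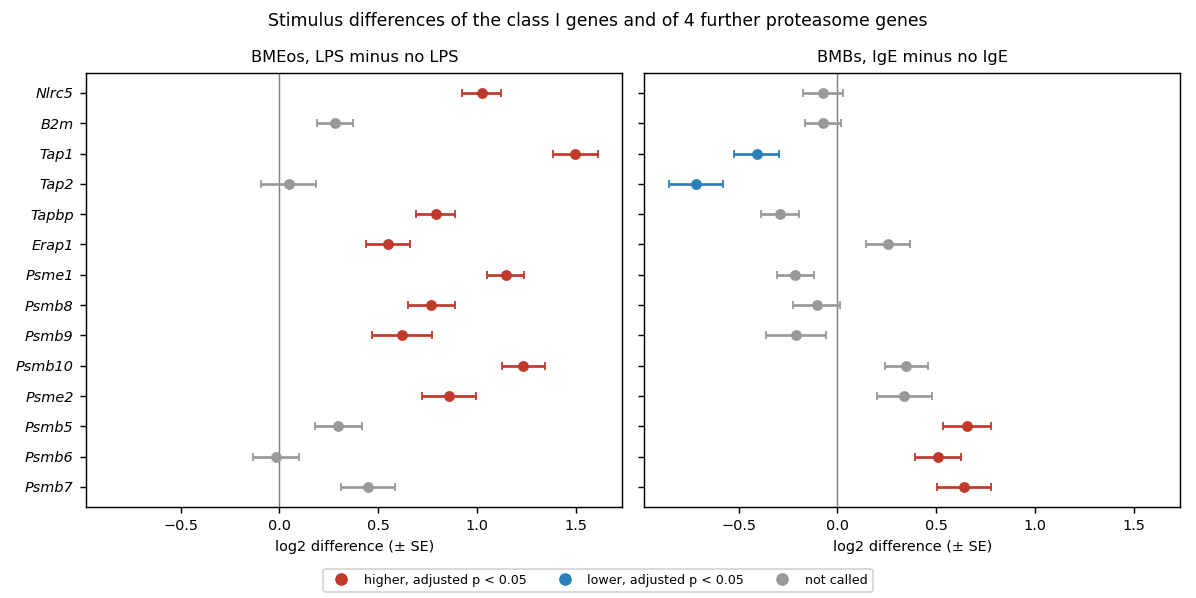
Log2 difference (x axis, points, with bars of 1 SE) with LPS in BMEos (left) and with IgE and antigen in BMBs (right) for the 10 class I genes and for *Psme2*, *Psmb5*, *Psmb6* and *Psmb7* (rows). Red is higher and blue lower at an adjusted p under 0.05. With LPS 8 of the class I genes lie right of 0, whereas with IgE *Tap1* and *Tap2* lie left of 0 and *Psmb5*, *Psmb6* and *Psmb7* right of it.

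*Nlrc5* was read by many probe sets, and the one of highest mean signal was not the one with the largest LPS difference. All 19 *Nlrc5* probe sets rose with LPS when each was tested on its own among 14707 probe sets, of which 12.6% rose (an alternative chosen after seeing the data). Of these, 6 were not above background on 1 or both BMEos arrays without LPS, and 3 of the 6 exceeded it on no array without LPS and so passed the filter only through LPS. The other 13 had differences of 0.52 to 2.69 with a median of 1.23, against 1.02 on the probe set used. The mean of all 19, dim ones included, gave a difference of 1.65. On the 13 probe sets the differences were 0.57 to 3.03 in *Slpi*-/- BMEos with a median of 1.41, and 0.47 to 2.35 in B6 BMEos with a median of 1.05. The LPS difference was larger in *Slpi*-/- than in B6 cells on 13 of 13, by a median of 0.52, but all of them were read on the same 4 arrays, so that they are no replicates. On the mean of its probe sets *Nlrc5* was also higher in BMEos and in BMBs than in mast cells, by 0.40 and 0.34 (adjusted p = 0.01733 and 0.04323), which also rests in part on dim probe sets and which the probe set of highest mean signal did not show (0.05 ± 0.10 and 0.16 ± 0.10).

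**Figure D4:**
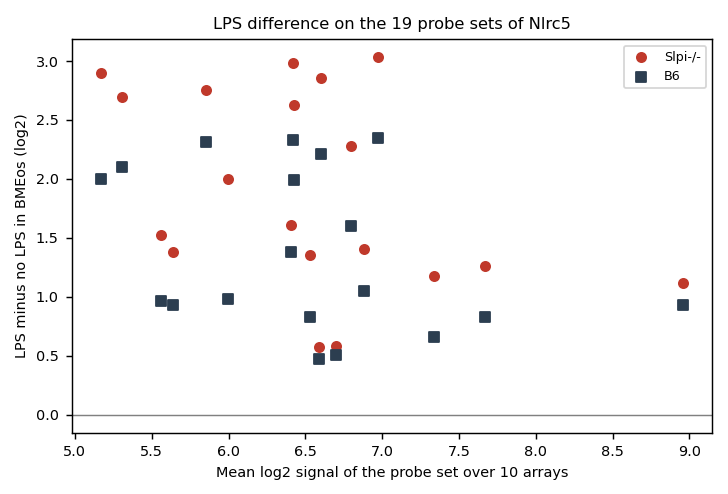
Log2 difference between BMEos with and without LPS (y axis) on each of the 19 probe sets of *Nlrc5*, against the mean log2 signal of the probe set over 10 arrays (x axis), with *Slpi*-/- as circles and B6 as squares. The probe set used for the gene is the one furthest to the right, with 1.12 in *Slpi*-/- and 0.93 in B6 cells, and the highest probe sets reach 3.03 and 2.35.

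The third comparison asked what cross-linking of IgE changes in BMBs. With IgE and antigen, 0 of the 10 class I genes rose and 2 fell, where 12.2% of all genes tested rose and 10.6% fell. *Tap2* fell by 0.72 on the log2 scale (SE 0.14, adjusted p = 0.01428), by 0.97 in *Slpi*-/- and by 0.46 in B6 cells. *Tap1* fell by 0.41 (SE 0.11, adjusted p = 0.0466), by 0.49 in *Slpi*-/- and by 0.33 in B6 cells. Both calls were weak: without the *Slpi*-/- BMB pair neither passed (adjusted p = 0.1148 for *Tap2* and 0.2819 for *Tap1*), and *Tap1* did not pass without the B6 pair (0.1057) or with no filter on signal (0.08549). *Psmb10* had a difference of 0.35 ± 0.11 (adjusted p = 0.06277) and *Erap1* one of 0.26 ± 0.11 (adjusted p = 0.16), both positive in both genotypes, and *Psmb10* passed with the stricter background (0.04518) and with a variance trend (0.03439), under which *Tapbp* also passed as lower (-0.29, adjusted p = 0.03199), and the other 6 genes had differences of -0.29 to -0.07. The median of the 10 genes was -0.16, and that of all genes tested was -0.02.

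Standard proteasome subunits went the other way from the transporter in these cells. *Psmb5*, *Psmb7* and *Psmb6* rose by 0.66 ± 0.12, 0.64 ± 0.14 and 0.51 ± 0.12 (adjusted p = 0.01183, 0.01991 and 0.02446), while their immunoproteasome counterparts *Psmb8*, *Psmb10* and *Psmb9* had -0.10 ± 0.12, 0.35 ± 0.11 and -0.21 ± 0.15, none past the test. Of the 20 other proteasome genes tested 12 rose and 1 fell, with a median of 0.45. *Psme3* (0.66 ± 0.10), which forms another activator, and *Psmb5* were the highest, and the one that fell was *Psmb11* (-0.35 ± 0.10), a subunit known from thymic epithelium. Of these proteasome genes 20 were above background on each BMB array without IgE and 19 on each with IgE, so at least 1 lay near it. Of the 9 peptide loading and chaperone genes 7 rose, with *Hspa5* (1.62 ± 0.17) and *Calr* (1.17 ± 0.19), both chaperones of the endoplasmic reticulum, the highest. *Hspa5* had 11.64 and 11.72 in *Slpi*-/- and B6 BMBs with IgE against 9.69 and 10.42 in *Slpi*-/- and B6 BMBs. *Irf1* fell by 0.56 (SE 0.10, adjusted p = 0.01118), and of the 8 interferon-induced genes outside class I that were above background on both BMB arrays without IgE 0 passed in limma, with differences of -0.29 to 0.32. Over all 19 tested, 0 passed (2 at an unadjusted p under 0.05), but 7 of them were below background on both BMB arrays without IgE. *Ifngr1* and *Jak2* fell by 0.40 and 0.43. Of the 9 neutrophil markers 1 fell with IgE (*Ly6g*, -1.48 ± 0.10), with a log2 summed signal of 11.33 and 11.14 in *Slpi*-/- and B6 BMBs with IgE against 12.75 and 12.63 in *Slpi*-/- and B6 BMBs, and of the 6 monocyte and macrophage markers 2 fell (9.21 and 8.56 against 10.31 and 10.22 in the same order). Of the 11 dendritic cell markers 1 rose and 3 fell, and of the 5 basophil markers 2 fell (*Fcer1a* and *Il3ra*). Their part in the result was not tested.

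The LPS and IgE differences were set against each other in the same fit. For 8 of the 10 class I genes the LPS difference in BMEos was above the IgE difference in BMBs, and for 0 below, where 9.71% of all genes tested were above and 13.3% below. The gap was largest for *Tap1* (1.91 ± 0.16, adjusted p = 0.0008562), followed by *Psme1* (1.36 ± 0.13, adjusted p = 0.001347). *B2m* and *Erap1* did not pass (adjusted p = 0.09599 and 0.2185), and *Tap2* passed through its fall with IgE (0.76 ± 0.20, adjusted p = 0.03622). *Tap2* lost this call without either BMEos pair and without the *Slpi*-/- BMB pair (adjusted p of 0.08048 to 0.1338), *Psmb8* without the *Slpi*-/- pair of BMEos or of BMBs (0.06751 and 0.06636), and *Psmb9* without these 2 pairs or the B6 BMB pair (0.08353 to 0.1338). The cell type, the stimulus and its duration differ together between these differences, and so do the sex-linked genes, with *Xist* at 5.37 ± 0.28 and *Eif2s3y* at -4.44 ± 0.14 in this comparison.

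The last comparison asked whether the loss of *Slpi* changes the class I genes. No class I gene passed between *Slpi*-/- and B6 cells, on terms that average over arrays with and without the stimulus. *Mmp9*, which the paper found higher in *Slpi*-/- BMEos by array and by qRT-PCR, was not called in BMEos either. A gene that did not pass may therefore still differ. In BMEos 0 of 10 were called by limma (1 at an unadjusted p under 0.05), where 0.00737% of all genes tested, *Slpi* itself, passed in either direction. In BMBs 0 of 10 were called (0 at an unadjusted p under 0.05) against a background of 0.00737%, again *Slpi*, and over the 5 cell and stimulus settings 0 of 10 were called (0 at an unadjusted p under 0.05) against 0% of all genes. The differences over the 5 settings lay between -0.09 and 0.15. *Psmb10* was the highest, with 0.33 ± 0.11 in BMEos (adjusted p = 0.8626, higher in 2 of 2 pairs), 0.15 ± 0.11 in BMBs (0.8703, higher in 2 of 2 pairs) and 0.15 ± 0.09 over the 5 settings (0.9136, higher in 4 of 5 pairs). In mast cells *Psmb10* was lower in *Slpi*-/- (7.58) than in B6 cells (7.83).

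The pairs of single arrays differed in how the genes lay. In BMEos with LPS 9 of the 10 genes were higher in *Slpi*-/- than in B6 cells, with a median difference of 0.23, where 50.5% of all genes above background were higher and their median was 0.00. *Psmb9* (0.44), *Psmb10* (0.40), *Tap1* (0.35) and *Psmb8* (0.33) had the largest differences. In BMEos without LPS 3 of 10 were higher (51.7% of all genes), with a median of -0.02. In BMBs with IgE 1 of 10 was higher (47.2% of all genes), with a median of -0.11, and in BMBs without IgE 6 of 10 were higher (43.4% of all genes), with a median of 0.03. In mast cells 0 of 10 were higher (49.6% of all genes), with a median of -0.10. The LPS difference was larger in *Slpi*-/- than in B6 BMEos for 10 of 10 genes, by a median of 0.18, and it was larger for 50.1% of all genes. It was also larger for 18 of 19 interferon-induced genes outside class I, by a median of 0.51, so that the class I genes were not alone in this. Some of those 19 were at background without LPS. Among the class I genes *Psmb9* had the widest gap, with an LPS difference of 0.92 in *Slpi*-/- and 0.31 in B6 cells. The IgE difference was lower in *Slpi*-/- than in B6 BMBs for 10 of 10 class I genes, by a median of 0.13, and for 46.6% of all genes. Of the interferon-induced genes outside class I it was lower for 6 of 12. With 1 array in each cell these gaps have no error of their own and were not tested, and genes read on the same 4 arrays are no replicates. In the fits above these gaps were themselves the residual from which the errors of the LPS and IgE differences were in part taken.

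**Figure D5:**
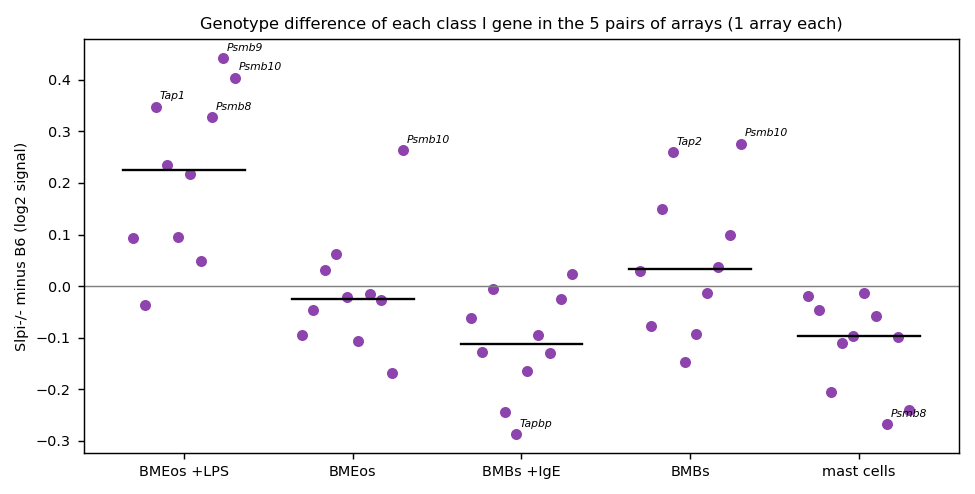
Difference in log2 signal between the *Slpi*-/- and the B6 array (y axis) for each of the 10 class I genes (points) in the 5 cell and stimulus settings (x axis), with the median as a bar. The points of BMEos with LPS lie mostly above 0, with *Psmb9* at 0.44, and those of mast cells lie below 0.

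The 8 genes outside all lists whose signal followed the mean of the 10 class I genes most closely were *Dtx3l*, *Parp14*, *Trafd1*, *Daxx*, *Tor1aip1*, *Dhx58*, *Nadk* and *Znfx1*, with Pearson's r of 0.98 to 0.99 over the 10 arrays. *Dtx3l*, an E3 ubiquitin ligase, had 10.63 and 10.02 in *Slpi*-/- and B6 BMEos with LPS and 7.54 to 8.27 on the other 8 arrays. *Parp14*, an ADP-ribosyltransferase, had 10.87 and 10.58 in *Slpi*-/- and B6 BMEos with LPS and 6.74 to 7.84 elsewhere. Likeness here rests largely on the 2 arrays with LPS, which stood above the other 8 for each of the 8 genes.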

How the data were processed

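Total RNA of bone marrow-derived cells was hybridised to Affymetrix Mouse Gene 1.0 ST arrays. The authors applied RMA (robust multi-array averaging) through affy, a Bioconductor package. The deposited log2 signals of 34760 probe sets were used unchanged. RMA draws the distributions of the arrays together, so that a shift of all genes would not be seen. Probe sets were named through the platform annotation: 21640 carry 1 symbol, 1321 several and 11799 none, and only the first were used. A gene was tested if it exceeded the 95th percentile of olfactory receptor genes on at least 1 array of the fit.

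All tests used lmFit and eBayes of limma 3.58.1 under R 4.3.3 (Benjamini-Hochberg adjustment over all genes tested, threshold 0.05). The fit of all 10 arrays for LPS, IgE and genotype within a cell type left 2 residual degrees of freedom, that of genotype over 5 settings left 4, and that of 6 unstimulated arrays left 2. Arrays are paired by the design through a shared genotype, or a shared cell type and stimulus. The BMEos arrays with and without LPS differ in sex-linked genes, so that these pairs cannot be parts of 1 culture. The precision is limited by the number of arrays, 1 per condition. The methods' paired t-test was run as an alternative. These fits were first tested on simulated data with known changes. Python 3.11.15 with numpy 2.4.6 and pandas 2.3.3 handled the tables, and matplotlib 3.10.9 drew the plots.

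The genes and lists were chosen with earlier results of these data known. All members are named; of each other list, up to 2 of the highest and 2 of the lowest genes past the test, together with *Psmb5*, *Psmb6*, *Psmb7*, *Psme2*, *Irf1*, *Slpi* and the 8 most alike genes. Marker and sex-linked genes are named where a result needs them. Of 27 class I heavy chain genes listed 14 were measured, and of 20 regulators 18. Promoter sequences are from RefSeq, build GRCm38.p6, and the array annotation names no build, so no probe positions are given. Alternatives were array centring, quantile normalization, averaging over the probe sets of a gene, other filters, a variance trend, arrays of 1 cell type, and leaving out each pair or array.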

Additional observations from a re-analysis of the deposited data

Results flagged for a closer look

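The difference between the LPS term in BMEos and the IgE term in BMBs passed the test for 8 of the 10 class I genes (limma, Benjamini-Hochberg adjustment over all genes). The difference was 1.91 for *Tap1* (adjusted p = 0.0008562), 1.36 for *Psme1* (0.001347), 1.10 for *Nlrc5* (0.003708), 1.08 for *Tapbp* (0.003626), 0.89 for *Psmb10* (0.009845), 0.87 for *Psmb8* (0.01442), 0.83 for *Psmb9* (0.03712) and 0.76 for *Tap2* (0.03622). *Tap1*, *Psme1*, *Nlrc5*, *Tapbp* and *Psmb10* passed in all 10 alternatives run, *Psmb8* in 8, *Tap2* in 6 and *Psmb9* in 5. The calls were lost without the *Slpi*-/- BMEos pair (*Tap2*, *Psmb8* and *Psmb9*), the B6 BMEos pair (*Tap2*, adjusted p = 0.08048), the *Slpi*-/- BMB pair (*Tap2*, *Psmb8* and *Psmb9*) and the B6 BMB pair (*Psmb9*, adjusted p = 0.08353), with no filter on signal (*Tap2* and *Psmb9*) and with arrays centred (*Psmb9*). For *Tap2* the LPS difference was 0.05 and the IgE difference was -0.72, whereas for the other 7 the LPS difference was the larger in size. Stimulus, cell type, duration and the sex-linked difference of the arrays with LPS (*Xist* 5.37 and *Eif2s3y* -4.44 in the same comparison) cannot be told apart here. With 1 array per condition, no array could be set against others of its own group.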

How the results depend on the processing

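Of 772 values of single class I genes under the alternatives run, 679 kept their direction and their side of the threshold, 63 no longer passed, 23 newly passed and 7 changed sign. None of the 7 passed before or after: *Tap2* with LPS (-0.030 with arrays centred, and -0.040 to 0.13 leaving out a BMEos pair, lowest without the *Slpi*-/- pair), *Nlrc5* in BMEos against mast cells (-0.063 after quantile normalization) and in BMEos against BMBs (0.059 as the mean of its probe sets), *B2m* in BMBs against mast cells (0.020 after quantile normalization) and *Psmb10* there (-0.145 to 0.365 leaving out 1 array, below 0 without *Slpi*-/- BMBs and without *Slpi*-/- mast cells). Leaving out 1 pair or array, the number of class I genes called was 5 to 8 for LPS, 0 to 1 for IgE, 5 to 7 for the difference between LPS and IgE, 4 to 6 for BMEos against mast cells, 3 to 4 for BMBs against mast cells and 1 to 5 for BMEos against BMBs, and 0 to 0 for each genotype comparison. The genes called over all were 1525 to 1534 for LPS, 1115 to 2169 for IgE, 1585 to 2545 for their difference, 4932 to 6950 for BMEos against mast cells, 3418 to 4367 for BMBs against mast cells, 3432 to 5154 for BMEos against BMBs, 0 to 0 for genotype in BMEos, 1 to 15 in BMBs and 0 to 2 over 5 settings. The methods' t-test called 0 class I genes in each comparison it was run on (4 for LPS, 0 for IgE, 4, 3 and 3 between cell types and 0, 0 and 1 between genotypes at an unadjusted p under 0.05), and 0 genes over all except 1 in BMEos against mast cells (2460 for LPS, 1516 for IgE and 724 and 647 for genotype in BMEos and BMBs at an unadjusted p under 0.05). On 2 pairs that test has too few arrays to say more. For IgE the count of class I genes was 1 with no filter on signal and 4 with a variance trend, and for BMEos against BMBs it was 2 with arrays centred and 2 with no filter. For genotype in BMEos the genes called over all were 0 after quantile normalization, 0 with no filter, 0 on the 4 BMEos arrays alone and 6 with a variance trend, in BMBs 9 with a variance trend, and over 5 settings 1 with arrays centred, 2 after quantile normalization, 1 with the 99th percentile background and 2 with a variance trend. Without the replicate block of genotype, 9 class I genes rose with LPS and 2 fell with IgE. How close a gene lies to background limits *Erap1* in mast cells, which was above the 95th but not the 99th percentile of olfactory receptor genes.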

Other observations

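The marker lists differed between cultures. The log2 summed signal of the mast cell markers was 13.03 to 13.39 on the BMB arrays and 14.72 and 14.62 in *Slpi*-/- and B6 mast cells, against 8.29 to 8.52 on the BMEos arrays. That of the neutrophil markers was 8.41 and 8.44 in *Slpi*-/- and B6 mast cells and 11.14 to 12.75 on the other 8 arrays. Of this list only *Ly6g* and *Mmp8* were called higher in unstimulated BMBs than in mast cells. *Cd74* was higher in *Slpi*-/- than in B6 BMBs both with IgE (9.13 and 8.12) and without (9.47 and 8.47), and the dendritic cell markers as a whole had log2 summed signals of 10.92 and 10.32 with IgE and 11.42 and 10.51 without in *Slpi*-/- and B6 BMBs. Each of these values is from 1 array.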
